A study of Mus musculus with 8 samples.

Results

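The genes described are 10 subunits of Polycomb repressive complex 2 (PRC2): Ezh1, Ezh2, Eed, Suz12, Jarid2, Mtf2, Phf19, Rbbp4, Rbbp7 and Epop. They were taken by name as core and accessory subunits, with earlier results of these data known. They are 10 of the 19896 gene identifiers listed in both deposited tables. All 10 passed the filter on low values in every comparison, a mean of at least 1 FPKM (fragments scaled by transcript length and library total). RNA came from E14 cells, an established line of mouse embryonic stem cells, in 8 libraries that form 4 groups of 2. The Cct5 KD and Cct7 KD cells expressed, on doxycycline, a short hairpin RNA to Cct5 or to Cct7, genes for subunits of the cytosolic chaperonin CCT. Each has its own control, Cct5 KD Ctr and Cct7 KD Ctr, infected with the same kind of vector, for which the series text names no hairpin. All 4 groups were selected in puromycin (0.5 µg/ml, 14 days) and kept mainly in serum with LIF. Doxycycline (2 µg/ml, 2 days) was given to all 4, so the controls carry it too. Positive clones were picked, but the sources used here do not give their number per group or whether replicates are separate cultures. The tests therefore measure the spread between libraries only. The question put to these cells was whether CCT5 or CCT7 keeps them from passing to totipotency.

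PRC2 places methyl groups on lysine 27 of histone H3, the mark of genes silenced during development. EZH2 or its slower paralogue EZH1 is the catalytic subunit, and works only when joined to EED, which reads the mark and stimulates the enzyme, and SUZ12, the scaffold. RBBP4 and RBBP7 are histone-binding proteins that also serve in the NuRD and SIN3 deacetylase complexes and in chromatin assembly. Accessory subunits divide PRC2 into forms that exclude each other. JARID2 with AEBP2 makes one, and a Polycomb-like protein (PHF1, MTF2 or PHF19) with EPOP or a PALI protein makes the other. Embryonic stem cells survive without PRC2, but then express developmental regulators and differentiate poorly.

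In the GENCODE annotation of GRCm38 (mm10) all 10 are protein-coding genes. The catalytic genes lie at chr11:101191115-101226463 (Ezh1, minus strand) and chr6:47530139-47595341 (Ezh2, minus). The other core genes are at chr7:89954654-89980983 (Eed, minus), chr11:79993106-80034123 (Suz12, plus), chr4:129307100-129335370 (Rbbp4, minus) and chrX:162760402-162779092 (Rbbp7, plus). The accessory genes are at chr13:44729474-44921643 (Jarid2, plus), chr5:108065674-108109004 (Mtf2, plus), chr2:34893757-34914026 (Phf19, minus) and chr11:97627389-97629702 (Epop, minus).

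Library checks came first. The targeted transcripts stood at 5.86% of control for Cct7 in Cct7 KD and at 19.6% for Cct5 in Cct5 KD. Embryonic stem cell markers (10 genes) summed to between 5564 and 5775 FPKM in the 4 control libraries, to 1095 and 1106 in Cct7 KD, and to 2428 and 2434 in Cct5 KD. All 10 were called lower in Cct7 KD, where 32.0% of all genes tested were called lower and 49.3% higher. Trophoblast markers (9 of 10 in both tables) summed to between 113 and 123 FPKM in the controls, 891 and 905 in Cct7 KD, and 1032 and 1048 in Cct5 KD as deposited. In Cct7 KD 5 of the 7 tested were higher, keratins among them, and 2 lower, while the defining Elf5 and Gata3 stayed under 1 FPKM. In the Cct5 KD remainder, defined below, 1 of the 6 tested was higher and 5 lower, where 41.1% of all genes were called higher and 42.1% lower. Primitive endoderm markers summed to between 24.0 and 26.5 in the controls, 31.9 and 32.7 in Cct7 KD, and 43.5 and 44.3 in Cct5 KD, and fibroblast markers (6 of 10 in both tables) to between 12.2 and 21.3 in all 8 libraries. The part of these shifts in the PRC2 results was not tested. In bulk RNA, fewer cells of a type and less RNA per cell cannot be told apart. In the 6 libraries with a recoverable depth, 1 fragment on a 1 kb transcript was worth 0.0183 to 0.0530 FPKM. FPKM sums were 472908 and 474013 in Cct7 KD, 491202 to 497897 in the controls, and 747293 and 749001 in Cct5 KD.

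The Cct5 KD values were not independent of the Cct7 KD values. In both replicate pairs the most common ratio of Cct5 KD to Cct7 KD was the same fixed value, a little above 1, and 15 of 19896 genes lay below it. That multiple of the Cct7 KD library made up 71.3% of the Cct5 KD total. The remaining 28.7%, called the remainder, is what Cct5 KD holds beyond the multiple. The targeted gene Cct5 was itself among the 15 genes below the ratio. It measured 70.8 and 73.4 FPKM in Cct5 KD but 280 and 271 in Cct7 KD, so its remainder is negative. The relation therefore does not hold for Cct5, and the 15 genes were left out of the remainder. The sources used here do not say how this relation arose. Cct7 KD is therefore described first, and the members' Cct5 KD changes are given as deposited, after median-of-ratios scaling, which sets the typical gene to its control level, and for the scaled remainder.

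In the 4 control libraries the subunits spanned a wide range of levels. Suz12 was highest at 205 ± 6.89 FPKM (mean ± SD, n = 4, both control groups). Mtf2 at 149 ± 4.51 and Rbbp7 at 143 ± 2.46 followed, with overlapping libraries. Ezh2 (97.5 ± 4.88), Jarid2 (94.6 ± 1.68) and Rbbp4 (93.9 ± 1.89) could not be ordered beyond their spread. Eed stood just under them at 86.3 ± 3.70. Epop (33.8 ± 2.58) and Ezh1 (27.1 ± 3.03) were lower and did not overlap, since the lowest Epop library stood at 30.6 and the highest Ezh1 library at 30.2. Phf19, a Polycomb-like protein, was lowest at 3.16 ± 0.294. Between the control groups 1 of the 10 members was called, Ezh2, higher in Cct7 KD Ctr by 0.12 on the log2(FPKM + 1) scale (limma, adjusted p = 0.0334). The largest gap among the members, 0.27 in the same direction, was that of Ezh1, which was not called (limma, adjusted p = 0.0822). Ezh1 measured 24.8 and 24.2 FPKM in Cct5 KD Ctr and 30.2 and 29.0 in Cct7 KD Ctr. The SD of Ezh1 over the 4 control libraries includes this gap. Over all genes 3.21% were called there and 2.01% were called higher in Cct7 KD Ctr, and the Ezh2 call was lost when any 1 of the control libraries was left out.

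**Figure D1:**
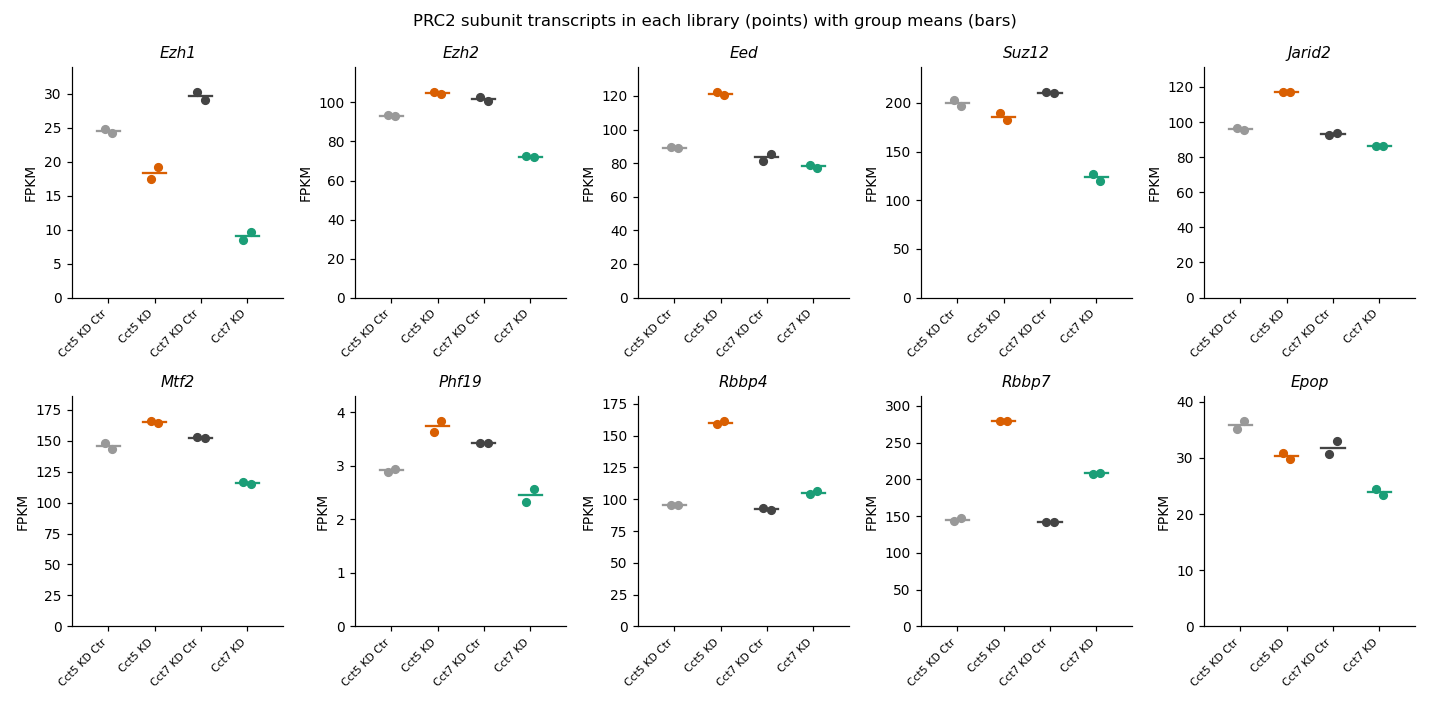
FPKM of the 10 PRC2 subunits (one panel each, y axis from 0) in the 8 libraries; points are libraries, bars are means of 2. Ezh1 falls from about 29 to 30 FPKM in Cct7 KD Ctr to 8.44 and 9.65 in Cct7 KD, while Rbbp7 rises from 141 and 142 to 208 in both libraries.

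Cct7 knockdown changed the make-up of the PRC2 transcripts. Both catalytic subunits and the scaffold Suz12 fell, Ezh1 the furthest, to 30.5% of its control, whereas Rbbp7 rose to 147%. Of the 10 members 8 were called lower and 2 higher, where 32.0% of all genes tested were called lower and 49.3% higher. A call of some kind was common here, since 81.4% of all genes passed, and all 10 members had groups that did not overlap, as did 90.6% of all genes. The median log2 change was -0.38 over the members and 0.15 over all genes. After median-of-ratios scaling 8 members were lower, 1 was higher and Rbbp4 was not called, against 44.4% lower and 37.0% higher of all genes. The medians were then -0.59 and -0.07.

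The catalytic subunits parted. Ezh1 measured 30.2 and 29.0 FPKM in the Cct7 KD Ctr libraries and 8.44 and 9.65 in those of Cct7 KD. Every knockdown library lay far under both controls, a log2 change of -1.61 (SE 0.0657, limma adjusted p = 1.09e-05) that 2.08% of all tested genes reached or exceeded downwards. It was the only member called with a fold of at least 2, a group that held 6.60% of all genes on the lower side. Ezh2, the main methyltransferase of dividing cells, measured 103 and 101 FPKM in the controls and 72.6 and 71.9 in the knockdown, a change of -0.49 (SE 0.0258, limma adjusted p = 2.51e-05). Both knockdown libraries lay under both controls here too.

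The ratio of Ezh2 to Ezh1 within a library, which does not depend on how libraries are scaled, was 3.40 and 3.46 in the controls and 8.60 and 7.44 in Cct7 KD. The mean ratio thus rose 2.34-fold. Ezh1 made up 22.6% ± 0.248 (SD, n = 2) of the summed Ezh1 and Ezh2 FPKM in the controls and 11.1% ± 1.01 in the knockdown. With 2 libraries against 2, no exact test of a ratio can pass a threshold of 0.05, so ratios are given as descriptions. By the root mean square difference of their log2(FPKM + 1) profiles over the 6 libraries other than Cct5 KD, among 8279 genes, the genes most like Ezh1 were AC079441.1 (0.0319), Pla2g6 (0.0512), a phospholipase, and Tle3 (0.0688), a corepressor. Those most like Ezh2 were Prrc1 (0.0148), Ninl (0.0159) and Epn2 (0.0171).

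Of the other core subunits, Suz12 changed much and Eed hardly. Suz12 measured 211 and 210.3 FPKM in the controls and 127 and 120.1 in Cct7 KD, a change of -0.77 (SE 0.0335, limma adjusted p = 1.36e-05). The knockdown mean lay at 58.6% of control. Eed measured 81.4 and 85.5 FPKM in the controls and 79.2 and 77.0 in the knockdown, a change of -0.10 (SE 0.0343, limma adjusted p = 0.0452). Its groups were close together, and the Eed call was lost without Cct7 KD Ctr 2, Cct7 KD 1 or Cct7 KD 2 (adjusted p = 0.174, 0.0688 and 0.190), with no filter on low values (adjusted p = 0.0530), and after scaling to a common FPKM total (adjusted p = 0.357), though median-of-ratios scaling gave -0.34 (limma adjusted p = 0.000385). The ratio of Suz12 to Eed went from 2.53 ± 0.0936 to 1.58 ± 0.0295. Suz12 per summed Ezh1 and Ezh2 moved little, from 1.61 ± 0.0232 to 1.52 ± 0.0653. The 4 core transcripts Ezh1, Ezh2, Eed and Suz12 summed to 425 FPKM in each control library and to 287 and 279 in Cct7 KD.

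As deposited, the histone-binding subunits went the other way from the other members. Many genes did so: 29.2% of all genes tested had a higher log2 change than Rbbp7, and 48.2% a higher one than Rbbp4. The change of Rbbp4 lay close to the median of 0.15 over all genes. Rbbp7, X-linked, measured 141 and 142 FPKM in Cct7 KD Ctr and 208 in both Cct7 KD libraries, a change of 0.55 (SE 0.0234, limma adjusted p = 1.24e-05), and stayed higher after median-of-ratios scaling at 0.30 (limma adjusted p = 0.00013). Rbbp4 measured 92.7 and 91.9 FPKM in the controls and 104 and 107 in the knockdown, a change of 0.19 (limma adjusted p = 0.00128) that became -0.06 (adjusted p = 0.0742) after median-of-ratios scaling. Of the 2, Rbbp7 alone kept its direction after that scaling. The ratio of Rbbp7 to Rbbp4 went from 1.53 ± 0.0123 to 1.98 ± 0.0372. Txlng, which overlaps Rbbp7 on the other strand, went from 22.4 to 17.2 FPKM, and Sync, which overlaps Rbbp4, from 0.803 to 3.10. The kit keeps strand, but the sources used here do not say whether counting used it, and the part of these neighbours in the values was not tested.

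**Figure D2:**
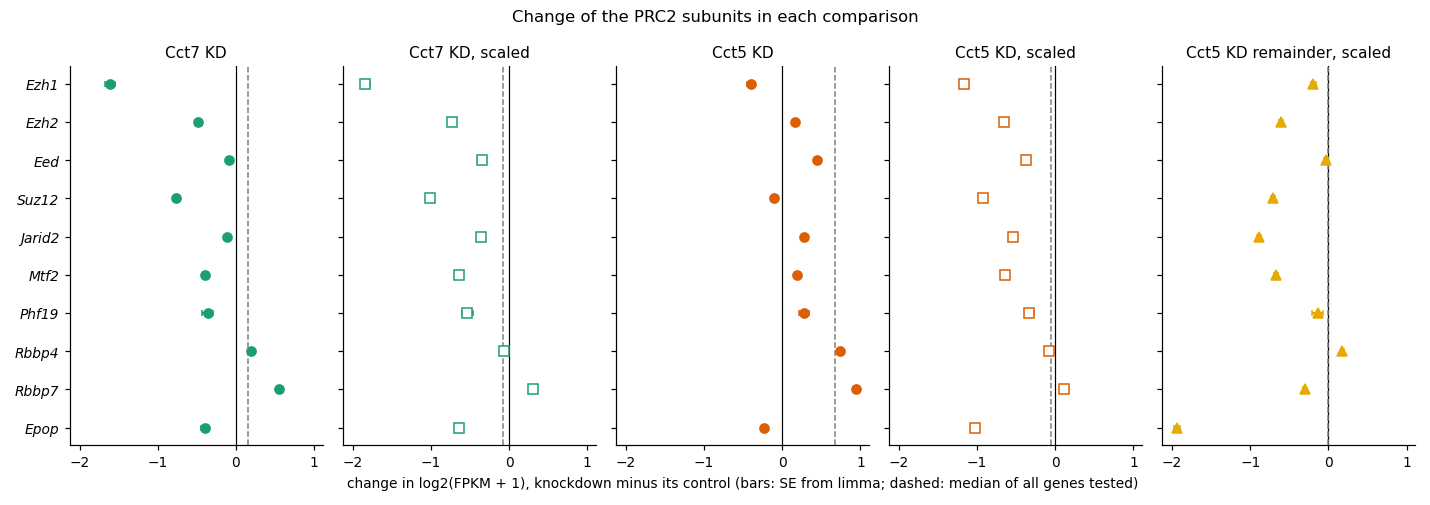
Change of each PRC2 subunit in log2(FPKM + 1), knockdown minus its own control, in 5 panels that share the x axis: Cct7 KD and Cct5 KD as deposited, both after median-of-ratios scaling, and the scaled Cct5 KD remainder. Bars are SEs from limma and the dashed line is the median of all genes tested; Ezh1 is lowest in Cct7 KD at -1.61, and Epop is lowest in the remainder at -1.94.

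Promoter sequences of 4 members are shown because these span the range of change in Cct7 KD: Ezh1, Ezh2 and Suz12, which fell, and Rbbp7, which rose. They are RefSeq promoters of GRCm38.p6, 250 bases before to 50 after a start, read 5′ to 3′ along the gene, and 9 of the 10 members had an entry (11 entries, Epop without one). Capitals mark matches on either strand to the CCAAT box, read by NF-Y, or to an E2F-type motif, E2F being the family that drives S-phase genes. The E2F-type motifs searched were TTTGGCG (in 1.57% of all promoters), then TTTCGCG (in 0.849%) and lastly TTTCCCG (in 3.39%). The Ezh1 window is chr11:101226414-101226713 (minus strand), that of Ezh2 chr6:47594981-47595280 (minus), that of Suz12 chr11:79992856-79993155 (plus), and that of Rbbp7 chrX:162760122-162760421 (plus).
Ezh1: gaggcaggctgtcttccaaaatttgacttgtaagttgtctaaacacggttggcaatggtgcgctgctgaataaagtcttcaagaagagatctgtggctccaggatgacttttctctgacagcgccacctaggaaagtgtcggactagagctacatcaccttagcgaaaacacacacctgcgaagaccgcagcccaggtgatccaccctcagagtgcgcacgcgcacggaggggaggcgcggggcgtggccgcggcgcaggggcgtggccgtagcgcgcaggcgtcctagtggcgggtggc
Ezh2: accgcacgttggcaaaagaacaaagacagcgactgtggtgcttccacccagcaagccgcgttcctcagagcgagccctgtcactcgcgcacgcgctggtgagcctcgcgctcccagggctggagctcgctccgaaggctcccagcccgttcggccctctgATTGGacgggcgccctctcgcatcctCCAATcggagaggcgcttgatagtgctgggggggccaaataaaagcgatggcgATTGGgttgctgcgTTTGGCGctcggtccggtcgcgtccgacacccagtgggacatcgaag
Suz12: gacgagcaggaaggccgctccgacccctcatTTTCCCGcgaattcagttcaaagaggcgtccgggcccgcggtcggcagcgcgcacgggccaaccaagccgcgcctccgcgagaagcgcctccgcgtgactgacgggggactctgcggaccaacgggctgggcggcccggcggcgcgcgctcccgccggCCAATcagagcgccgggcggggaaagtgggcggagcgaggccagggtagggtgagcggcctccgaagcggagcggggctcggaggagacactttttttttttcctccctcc
Rbbp7: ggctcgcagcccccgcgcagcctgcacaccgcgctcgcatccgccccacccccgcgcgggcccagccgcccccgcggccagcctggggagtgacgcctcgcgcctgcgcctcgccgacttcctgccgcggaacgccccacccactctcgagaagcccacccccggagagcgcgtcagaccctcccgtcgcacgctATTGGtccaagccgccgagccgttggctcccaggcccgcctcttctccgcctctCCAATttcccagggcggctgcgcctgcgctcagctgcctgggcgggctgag
An E2F-type match lay in the promoters of 3 members, Ezh2 with the first of these motifs, Suz12 with the last and Phf19 with the last 2, and in 5.58% of all 32851 promoters. CCAAT lay in 7 members and in 37.4% of all promoters, and the GC box GGGCGG in 6 members and in 35.7%. A member was counted if any of its entries matched, whereas the shares are per promoter, so these are unlike measures. Mtf2 matched CCAAT only in its entry with 2 CpG dinucleotides. The Ezh1 window held none of these motifs on either strand. All 4 windows were richer in GC (59.3% for Ezh1, 64.3% for Ezh2, 71.0% for Suz12 and 75.7% for Rbbp7) than the median promoter at 52.7%. They held 23, 31, 41 and 38 CpG dinucleotides in the same order, against a median of 7. A match is a description of letters and not a bound site.

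Among the accessory subunits, Mtf2, Phf19 and Epop of the Polycomb-like form had larger log2 changes than Jarid2, though gene was not tested against gene. Jarid2, which brings PRC2 to ubiquitinated chromatin, measured 92.8 and 93.6 FPKM in the controls and 86.1 and 86.6 in Cct7 KD, a change of -0.11 (SE 0.0243, limma adjusted p = 0.00772) that lost its call after scaling to a common FPKM total (-0.05, adjusted p = 0.122). Mtf2, the main Polycomb-like protein of stem cells, measured 153 and 152 FPKM in the controls and 116 and 115 in the knockdown, a change of -0.39 (SE 0.0239, limma adjusted p = 3.99e-05). The shift in Mtf2 was far larger than the spread of either pair. Phf19 measured 3.42 FPKM in both controls and 2.33 and 2.56 in the knockdown, -0.36 on this scale (SE 0.0724, limma adjusted p = 0.00529), with the widest error of the 10. Epop, which links PRC2 to Elongin, measured 30.6 and 33.0 FPKM in the controls and 24.5 and 23.4 in the knockdown, a change of -0.40 (SE 0.0478, limma adjusted p = 0.000617). All 3 lay under both controls in both libraries. Per Suz12 the accessory transcripts were higher in the knockdown, Jarid2 at 0.700 ± 0.0300 against 0.442 ± 0.0040, Mtf2 at 0.938 ± 0.0297 against 0.723 ± 0.00068, and Epop at 0.194 ± 0.0011 against 0.151 ± 0.0085. Tmed5, which overlaps Mtf2 on the other strand, went from 54.2 to 70.1 FPKM.

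**Figure D3:**
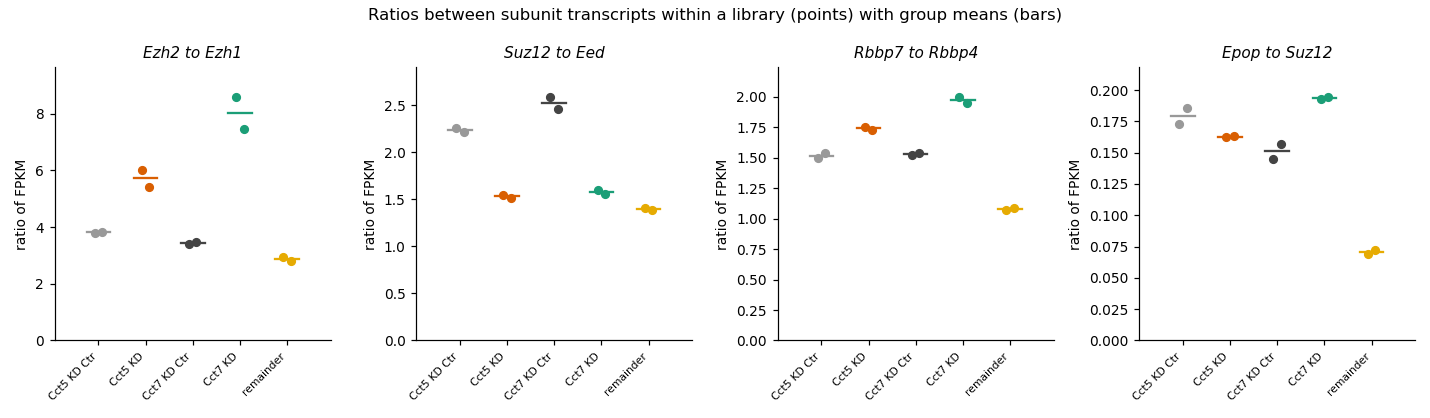
Ratios of FPKM between subunit transcripts within a library, on y axes from 0; points are libraries or the Cct5 KD remainder, bars are means of 2. Ezh2 to Ezh1 is 8.60 and 7.44 in Cct7 KD against 3.40 and 3.46 in its control, and Epop to Suz12 is lowest in the remainder, at 0.0705 on average.

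PRC2 genes outside the 10 members did not share one direction. Of 5 other accessory genes 2 were called higher, 1 lower and 2 not at all in Cct7 KD. Over all genes tested 49.3% were called higher and 32.0% lower. The largest change was in AU022751, which RefSeq lists as Ezhip, a germline inhibitor of PRC2 that mimics the lysine 27 mutant histone. AU022751 measured 3.09 and 2.89 FPKM in the controls and 13.4 and 13.9 in Cct7 KD, a change of 1.88 (SE 0.0553, limma adjusted p = 4.55e-06). Both knockdown libraries were more than 4 times as high as either control, and AU022751 FPKM went from 1.42% ± 0.0619 to 11.1% ± 0.671 of Suz12 FPKM. Phf1, the Polycomb-like protein that is scarce in stem cells, measured 2.23 and 1.79 FPKM in the controls and 4.87 and 4.20 in the knockdown, a change of 0.88 (limma adjusted p = 0.000632). Its share of the Polycomb-like transcripts went from 1.27% ± 0.194 to 3.69% ± 0.351, with Mtf2 at 94.3% ± 0.198 in the knockdown. Aebp2, the partner of Jarid2, measured 80.4 and 78.5 FPKM and then 76.0 and 72.3, a change of -0.10 (limma adjusted p = 0.0414) whose call was lost without Cct7 KD Ctr 1, Cct7 KD Ctr 2 or Cct7 KD 2 (adjusted p = 0.141, 0.0563 and 0.200). Lcor and Lcorl, the PALI genes, were not called as deposited (0.08 and -0.10, limma adjusted p = 0.275 and 0.372). After median-of-ratios scaling 2 of the 5 were higher and 2 lower, where 37.0% of all genes were called higher and 44.4% lower. The lower ones were Aebp2 (-0.35, limma adjusted p = 0.000371) and Lcorl (-0.31, limma adjusted p = 0.0249), and Lcor was not called.

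The enzymes that remove the mark were also unequal. Kdm6b measured 7.37 and 7.24 FPKM in the controls and 17.8 and 18.1 in Cct7 KD, a change of 1.19 (limma adjusted p = 6.59e-06). Kdm6a, its X-linked relative, measured 15.9 and 15.5 FPKM and then 12.4 and 11.9, a change of -0.34 (limma adjusted p = 6e-04). Uty, the Y-linked relative with weak activity, measured 7.87 and 7.33 FPKM and then 2.03 and 1.86, a change of -1.55 (limma adjusted p = 1.49e-05). Thus 1 of the 3 was higher and 2 were lower in both Cct7 KD libraries, where 49.3% of all genes were called higher and 32.0% lower.

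**Figure D4:**
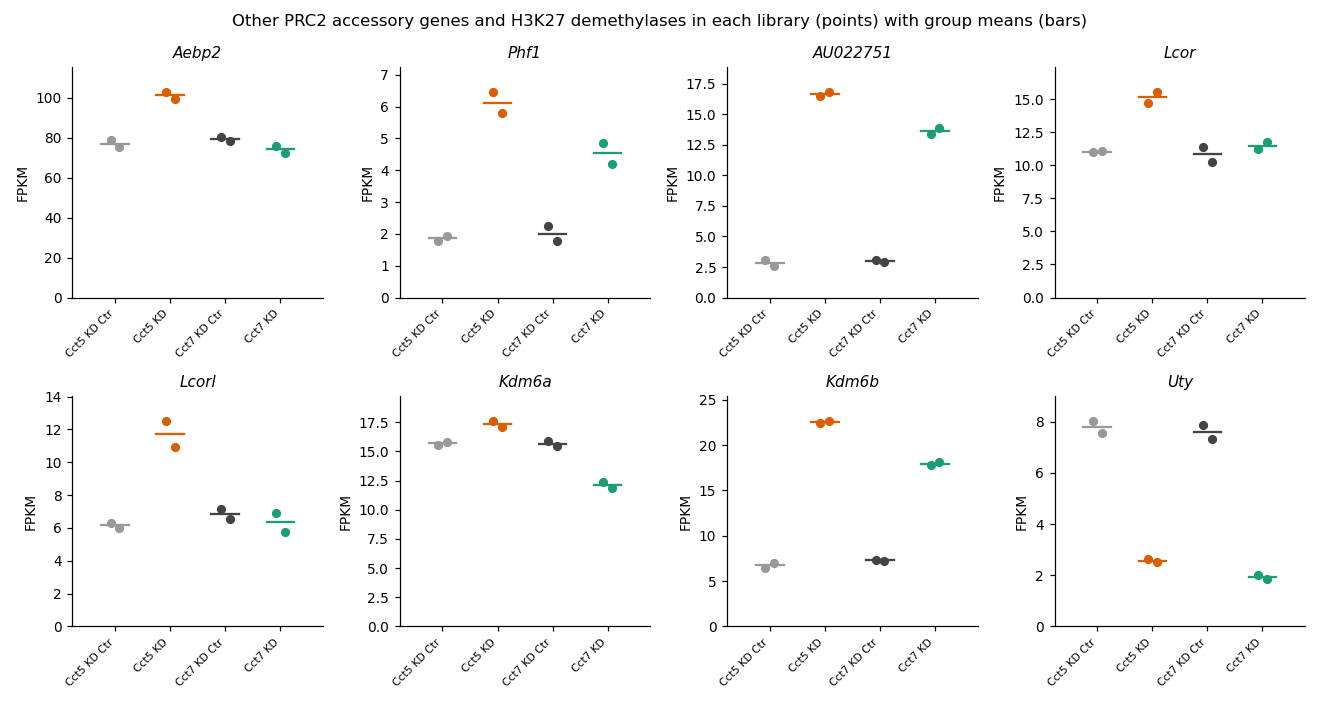
FPKM of 5 other PRC2 accessory genes and 3 H3K27 demethylase genes in the 8 libraries (y axes from 0); points are libraries and bars means of 2. AU022751 is at 2.59 to 3.09 in the controls and 13.4 to 16.8 in the knockdowns, and Uty falls from above 7 to below 3.

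Genes that act with or against PRC2 were called in both directions in Cct7 KD, as were all genes tested, 49.3% higher and 32.0% lower. Of 24 PRC1 subunits, which bind or precede the PRC2 mark, 22 were tested, with 10 higher, 8 lower and a median log2 change of -0.00. Phc1, a polyhomeotic subunit, fell from 179 ± 0.894 to 26.1 ± 0.476 FPKM (log2 change -2.73, limma adjusted p = 5.11e-07), while Phc2 (1.81), Bmi1 (1.65) and Scml2 (1.63) rose. Of 11 H3K4 and H3K36 methyltransferases, whose marks oppose PRC2, 4 were higher and 5 lower, with a median of 0.06. Nsd2 (1.81), Ash1l (0.54) and Kmt2a (0.48) rose and Kmt2b (-0.36) fell. Of 10 BAP1 complex genes, which remove H2A ubiquitin, 9 were tested, with 4 higher and 2 lower (median 0.12), among them Mbd5 (1.48), Mbd6 (0.50) and Foxk1 (0.34) higher and Asxl1 (-0.87) lower. Of 20 genes in complexes that share Rbbp4 and Rbbp7, 5 were higher and 9 lower (median -0.05), with Mbd2 (2.00), Sap18 (0.71) and Chd3 (0.67) higher and Bptf (-1.08) lower. These medians stand beside 0.15 over all genes tested. After median-of-ratios scaling they were -0.23 for PRC1, -0.18 for the methyltransferases, -0.10 for BAP1 and -0.30 for the last list, against -0.59 for the PRC2 members and -0.07 over all genes.

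Classical PRC2 targets were called in both directions. Of 54 Polycomb target genes of stem cells 44 were in both tables and 18 passed the filter in Cct7 KD. Of these 18, 8 were higher and 8 lower (median -0.02), where 49.3% of all genes were called higher and 32.0% lower. After median-of-ratios scaling 5 of 16 were higher and 9 lower, against 37.0% and 44.4% of all genes. Among the called genes Gata2, Gata6, Lhx2 and Msx2 had control means under 1 FPKM and passed through the knockdown libraries alone. Foxd3, Neurod1 and Eomes had knockdown means under 1 FPKM and passed through the control libraries alone. The filter thus set the direction of these calls, which carry no weight. With no filter, 21 of 47 in that table were higher, 11 lower and 15 not called, where 43.6% of all genes were called higher and 24.9% lower. Otx2, a homeobox gene well expressed in the control cells, fell from 78.0 ± 2.40 to 1.38 ± 0.0248 FPKM. Cdkn2a rose by 1.07 and Cdkn2b by 0.62 on the log2 scale. HOX genes, PRC2 targets silent in stem cells, summed to 3.87 and 3.61 FPKM in Cct7 KD Ctr and to 61.6 and 64.5 in Cct7 KD. With no filter on low values 27 of 30 HOX genes in that table were higher, 1 lower and 2 not called, beside that same background, in which 68.5% of all genes were called. Among the HOX genes in both tables, 5 were listed at 0 in both Cct7 KD Ctr libraries. Genes at or near 0 in the controls can hardly be called lower, so the count with no filter carries little weight. All 9 HOX genes that passed the filter were higher, but each had a control mean under 1 FPKM and passed through the knockdown libraries alone, so that count carries no weight. Hoxb4 went from 0.0523 and 0.0501 FPKM to 6.43 and 6.71, Hoxb9 from 0.556 and 0.367 to 8.45 and 8.66, and Hoxb1 from 0.0429 and a listed 0 to 5.28 and 5.66.

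Proliferation genes moved in the same libraries. Ezh2, Eed and Suz12 are known E2F targets. Of 25 E2F and proliferation genes 14 were lower and 7 higher in Cct7 KD, where 32.0% of all genes were called lower and 49.3% higher. Their median log2 change was -0.17, against 0.15 over all genes, and -0.42 against -0.07 after median-of-ratios scaling. Their summed FPKM went from 2104 and 2115 in Cct7 KD Ctr to 1436 and 1448 in Cct7 KD. E2f8 (-1.29), Mcm6 (-1.12) and Top2a (-1.07) fell and E2f6 (1.16), a repressor found in a PRC1 form, rose. The part of proliferation in the PRC2 changes was not tested.

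**Figure D5:**
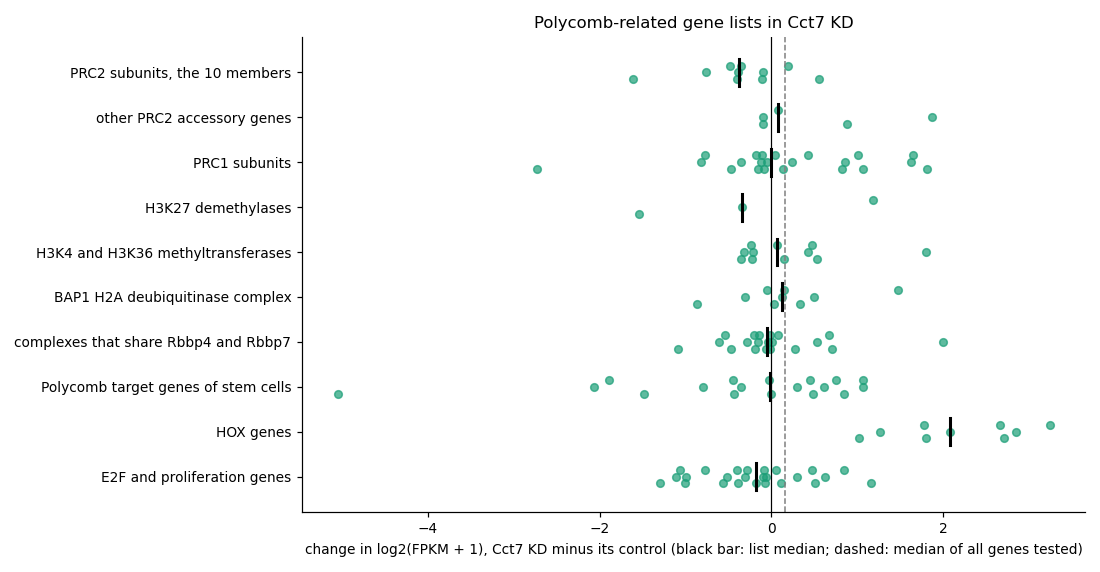
Log2(FPKM + 1) change in Cct7 KD of each tested gene (points) in the PRC2 members and 9 related lists, with list medians (black bars) and the median of all genes tested (dashed line, 0.15). The PRC2 members centre at -0.38, the PRC1, target and methyltransferase lists near 0; the HOX points include only genes that passed the filter, all through the knockdown libraries.

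The directions in Cct5 KD depended on how the libraries were scaled. As deposited, 7 members were called higher and 3 lower (Ezh1, Suz12 and Epop), where 78.0% of all genes were called higher and 11.3% lower. In all 89.3% of genes were called, and the median log2 change was 0.23 over the members and 0.68 over all genes. No member was called with a fold of at least 2, on a background of 31.2% higher and 2.17% lower. After median-of-ratios scaling 1 member, Rbbp7, was higher and 9 were lower, where 82.5% of all genes were called, 37.6% higher and 44.9% lower. The medians were -0.59 and -0.06. For the remainder 1 member, Rbbp4, was higher, 7 were lower and 2, Eed and Phf19, were not called, where 83.2% of all genes were called, 41.1% higher and 42.1% lower. The medians there were -0.45 and -0.01.

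Ezh1 measured 24.8 and 24.2 FPKM in Cct5 KD Ctr and 17.5 and 19.2 in Cct5 KD, a change of -0.40 as deposited (limma adjusted p = 0.000502), -1.17 after scaling and -0.19 for the remainder (limma adjusted p = 0.00275). The scaled remainder of Ezh1, 20.9 and 21.7, lay near its control. Suz12 measured 203 and 197 FPKM and then 189.7 and 182, with changes of -0.10, -0.92 and -0.70 in the same order. Suz12 as deposited was called (limma adjusted p = 0.0165), but not without Cct5 KD Ctr 1 (adjusted p = 0.0759) or without Cct5 KD 2 (adjusted p = 0.0906). Ezh2 measured 93.8 and 92.8 FPKM and then 105 and 104, with changes of 0.17, -0.65 and -0.60, so its direction turned with the scaling. The ratio of Ezh2 to Ezh1 was 3.81 ± 0.0392 in Cct5 KD Ctr, 5.71 ± 0.423 in Cct5 KD and 2.87 ± 0.116 in the remainder. The shift away from Ezh1 in Cct5 KD was thus not present in the remainder.

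Eed measured 89.5 and 88.8 FPKM in Cct5 KD Ctr and 122 and 120.5 in Cct5 KD, with changes of 0.44 as deposited, -0.38 after scaling and -0.03 for the remainder (limma adjusted p = 0.251). Suz12 to Eed went from 2.24 ± 0.0360 to 1.53 ± 0.0268, and was 1.40 ± 0.0155 in the remainder. Unlike the Ezh2 to Ezh1 ratio, this one was lower than control in Cct5 KD and in the remainder. Rbbp7 measured 143 and 147 FPKM and then 279 in both libraries, with changes of 0.94, 0.12 and -0.30. Rbbp4 measured 95.6 and 95.3 FPKM and then 159 and 161, with changes of 0.74, -0.08 and 0.18. The Rbbp7 to Rbbp4 ratio was 1.52 ± 0.0314 in the control, 1.74 ± 0.0187 in Cct5 KD and 1.08 ± 0.0134 in the remainder, so the remainder stood on the other side of the control.

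Epop drew least on the remainder among the 10 members. Epop measured 35.1 and 36.6 FPKM in Cct5 KD Ctr and 30.8 and 29.7 in Cct5 KD, with changes of -0.24 as deposited (limma adjusted p = 0.000954), -1.03 after scaling and -1.94 for the remainder (SE 0.0407, limma adjusted p = 5.62e-07). The scaled remainder of Epop was 8.43 and 8.81 FPKM, far under both controls. The remainder supplied 11% of Epop in Cct5 KD, but 44.6% of Ezh1, and 28.7% of the library as a whole. Jarid2 measured 96.4 and 95.7 FPKM and then 117 in both libraries, with changes of 0.28, -0.54 and -0.89. Mtf2 measured 148 and 143 FPKM and then 166 and 165, with changes of 0.18, -0.64 and -0.67. Phf19 measured 2.89 and 2.93 FPKM and then 3.63 and 3.83, with changes of 0.28, -0.33 and -0.14 (limma adjusted p = 0.0991 for the last). Jarid2, Mtf2 and Phf19 were therefore higher as deposited and lower after scaling.

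Of the other accessory genes all 5 were called higher in Cct5 KD as deposited, where 78.0% of all genes were. After scaling 2 were higher and 2, Aebp2 and Lcor, lower (37.6% and 44.9% of all genes), and in the remainder 2 were higher, 2 lower and 1 not called (41.1% and 42.1% of all genes higher and lower). AU022751 measured 3.09 and 2.59 FPKM in Cct5 KD Ctr and 16.5 and 16.8 in Cct5 KD, a change of 2.20 as deposited and 1.44 after scaling. In the scaled remainder AU022751 stood at 3.55 and 3.19 FPKM (log2 change 0.19, limma adjusted p = 0.0942). Its high level in Cct5 KD thus sat in the multiple of Cct7 KD, and the remainder supplied 7.79% of it. Uty fell under all 3 readings (-1.30, -1.85 and -2.14), and Kdm6b was higher as deposited (1.61) and after scaling (0.83) but not in the remainder (-0.12, limma adjusted p = 0.11). As deposited, HOX genes summed to 84.1 and 87.0 FPKM in Cct5 KD, against 3.47 and 3.49 in its control. These sums hold the fixed multiple of the Cct7 KD sums, 61.6 and 64.5 FPKM before multiplication. They are therefore not independent of the rise in Cct7 KD.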

How the data were processed

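Poly(A) RNA was sequenced as 150 bp pairs from strand-specific libraries, per the labels' protocols. FPKM per gene was deposited by the authors, 1 table to each knockdown, and per the submitters' processing notes used HTSeq and mm10. The sources used here do not give versions, aligner, annotation or gene lengths. Identifiers listed 2 times (8 and 6) were left out. Symbols came from a GENCODE annotation of GRCm38 (mm10), and 41 of 19896 identifiers had none. Depth was read from the steps of low FPKM values in genes with 1 transcript, whole within 0.05 of a fragment, and was accepted above 95% whole. The Cct5 KD libraries reached 68.6% and 53.2% and got none.

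Genes averaging 1 FPKM or more were tested with limma 3.58.1 (mean trend) in R 4.3.3 on log2(FPKM + 1), a scale that understates changes of low genes. Each knockdown was fitted with its own control (4 libraries), and the controls were compared in 1 fit of the 8 libraries. That fit took its spread from all 8, although the deviations of Cct5 KD and Cct7 KD are not independent (correlation 0.918 over genes). Its p-values may therefore be too small. A gene was called at an adjusted p (Benjamini-Hochberg, over all genes) under 0.05. The fit was also run on simulated data with independent errors and few changes, all upward. These data differ from that setting, so the run says little about error rates here. Scaled values were divided by median-of-ratios factors set to 1 in the controls. Tests run within a table only, except those of the controls and the remainder, which set values of both tables side by side.

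Named were all members, all other accessory and demethylase genes, the 4 largest called changes in Cct7 KD (mean of at least 2 FPKM) of each further list, and the 3 genes most like Ezh1 and Ezh2 (mean of at least 5 FPKM). Some genes that this rule names are not reported here. Members and lists were chosen with earlier results of these data known. Alternatives were other scalings, no filter, a 2-fold minimum, a pseudocount of 0.1, a replicate block, all 8 libraries in 1 fit, each library left out, and the remainder.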

Additional observations from a re-analysis of the deposited data

Results flagged for a closer look

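Each of 7 genes had both knockdown libraries on opposite sides of their controls in the 2 comparisons as deposited, lower in Cct7 KD and higher in Cct5 KD. The difference between the log2 changes, Cct5 KD minus Cct7 KD, was 0.65 for Ezh2, 0.54 for Eed, 0.39 for Jarid2, 0.58 for Mtf2 and 0.64 for Phf19. It was 0.49 for Aebp2 and 0.48 for Kdm6a. The differences were not tested, and the Cct5 KD values contain the Cct7 KD values. After median-of-ratios scaling all 7 genes were lower in both comparisons, Ezh2 by nearly the same amount (-0.74 in Cct7 KD and -0.65 in Cct5 KD).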

How the results depend on the processing

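With 2 libraries per group, error is estimated from few libraries and small changes such as that of Eed are at the limit of what can be called. Depth limits low genes such as Phf19, and no depth is known for Cct5 KD as deposited, though a depth was accepted for its remainder. With a fold of at least 2 the called genes fell to 2734 in Cct7 KD (from 11055) and 4724 in Cct5 KD (from 12662), and the members to 1 and 0. The comparison of the controls called 444 genes, and from 0 to 130 with 1 control library left out (0 without Cct5 KD Ctr 2, where 2308 genes had an unadjusted p under 0.05 in limma).

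In Cct7 KD, median-of-ratios scaling turned Rbbp4 to -0.061 and Lcor to -0.15. Leaving out 1 library each moved Lcorl, not called as deposited, between -0.212 (without Cct7 KD 1) and 0.0195 (without Cct7 KD 2). In Cct5 KD, median-of-ratios scaling, a common FPKM total and the remainder turned Ezh2 to -0.65, -0.41 and -0.60, Eed to -0.38, -0.14 and -0.031, Jarid2 to -0.54, -0.30 and -0.89, Mtf2 to -0.64, -0.40 and -0.67, and Phf19 to -0.33, -0.17 and -0.14. The same 3 settings turned Aebp2 to -0.43, -0.19 and -0.73, Lcor to -0.34, -0.12 and -0.84, and Kdm6a to -0.63, -0.41 and -0.65. Rbbp4 turned to -0.082 after median-of-ratios scaling, and Rbbp7 to -0.30 and Kdm6b to -0.12 in the remainder. The cause was not tested. Scaling also moved the split over all genes from 6702 higher and 4353 lower to 4933 and 5913 in Cct7 KD, and from 11057 and 1605 to 4975 and 5941 in Cct5 KD.

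Knockdown and control replicates with the same number share only the number: over genes, their deviations correlated at -0.036 in Cct7 and -0.012 in Cct5. Those of Cct5 KD and Cct7 KD correlated at 0.918, since each Cct5 KD library holds a multiple of the Cct7 KD library of its number. With a replicate block limma called 10968 genes in Cct7 KD, 12740 in Cct5 KD and 541 between the controls. Ezh1 kept its direction and its call in Cct7 KD under all 11 alternatives, with changes from -1.84 to -1.52.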
